A study of Gasterosteus aculeatus with 17 samples.

Results

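The genes described here were those whose gill RNA was higher in every freshwater stickleback than in every marine one, whichever water the fish were in. They were chosen on the deposited counts. Each count was divided by its library's total and expressed as counts per 1000000 (CPM). A gene was kept if the lowest of 8 freshwater fish lay above the highest of 9 marine fish. Its population difference, log2 of the ratio of the means after adding 0.5 CPM to each, also had to be at least 1. Its change between waters had to stay below 0.5 log2 units in both populations. Of 22456 genes listed, 152 met these conditions, and the 150 with the largest difference are the members, ranked from 1 to 150 by that difference. Since population and water differences chose the members, both are given below as descriptions, without tests.

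The fish were wild-caught males in breeding dress of the three-spined stickleback (Gasterosteus aculeatus). The freshwater fish came from a single lake and the marine fish from a single stretch of sea coast, so population cannot be told apart from site. There were 4 freshwater fish held for 4 days in marine water, 4 freshwater fish kept in fresh water, 5 marine fish held for 4 days in fresh water and 4 marine fish kept in marine water. All were captive, each library held the polyadenylated gill RNA of 1 fish, and no ages are stated.

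Three-spined sticklebacks have colonised fresh water from the sea many times, and populations of either origin are known to differ in inherited traits. The gill exchanges salts, ammonia and gases with the water, and in fresh water it takes up ions that it would secrete in the sea. It also holds immune cells, blood, cartilage and mucous cells. In RNA from a whole organ, fewer cells of a type and less RNA per cell cannot be told apart. The files give Ensembl gene IDs without names, and 0 of the IDs matched the gene table used, so no role can be given to any member. The leading members are given by ID and the others by rank.

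Library totals ranged from 23736661 to 27949237 counts in freshwater fish in marine water and from 23609866 to 28960967 in freshwater fish in fresh water. They ranged from 6932688 to 16108405 in marine fish in fresh water and from 17993109 to 19450343 in marine fish in marine water. Depth therefore moved with population. With every library thinned to 6932688 counts, 132 genes met the same conditions, and 97 of these were members. A composition factor (trimmed mean of M-values, TMM, which rescales totals to the bulk of genes) was 1.05 to 1.11 in freshwater fish in marine water and 0.983 to 1.01 in freshwater fish in fresh water. It was 0.931 to 1.00 in marine fish in fresh water and 0.909 to 1.01 in marine fish in marine water. On totals, the median population difference over the 16679 genes with a mean of at least 1 CPM was 0.09 log2 units, so a member's difference stands 0.09 units less far above the typical gene. With TMM that median was -0.0013 and the members' own median was 1.12 log2 units. Of the 150, 136 still had no overlap between populations, 115 kept a difference of at least 1, and 102 met all conditions.

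Freshwater fish lay above marine fish without overlap for 686 genes, 3.15% of the 21792 genes with any count. This condition is part of how the members were chosen, so nothing is read from it. Marine fish lay above freshwater fish without overlap for 154 genes, 0.707% of the same genes. These no-overlap counts also depended on scaling. They were 504 and 244 genes with TMM, 458 and 264 with upper-quartile scaling, and 434 and 285 with DESeq2 size factors. With the populations exchanged, the full set of conditions was met by 25 genes. The freshwater surplus was smaller under other scalings: 106 against 39 genes with TMM, 97 against 43 with upper-quartile scaling and 92 against 45 with DESeq2 size factors. In these the median difference over expressed genes was shifted to -0.0013, -0.011 and -0.025 log2 units. The surplus was larger after division by divisors shared by all counts of a gene, with 231 against 18 genes. That division alters a gene's ratios between fish only through the new library totals, so it too is a change of scaling. The median difference over expressed genes was then 0.16 log2 units. The counts were 138 against 18 genes without freshwater fish 4 in fresh water and 206 against 39 without fish 5 of that group.

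Most members differed by little more than the 1 log2 unit that the conditions required. Their median population difference was 1.21 log2 units, and the ratio of means had a median of 2.47. In 115 of the 150 the difference was under 1.5 log2 units, in 13 it was at least 2, and in 4 it was at least 3. The members covered a wide span of abundance, with freshwater means from 0.642 to 8278 CPM and a median of 18.7 CPM. Their marine means ran from 0.0304 to 3587 CPM with a median of 6.66 CPM. Few were close to off in marine fish: 8 had a marine mean below 0.5 CPM, 8 between 0.5 and 1 CPM, 43 between 1 and 5 CPM, 57 between 5 and 20 CPM, 29 between 20 and 100 CPM and 5 above 100 CPM. The 8 genes between 0.5 and 1 CPM had the largest median difference, 2.07 log2 units, and medians in the other bands were 1.16 to 1.26. These differences are on a scale with 0.5 CPM added, which understates change at low levels.

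**Figure D1:**
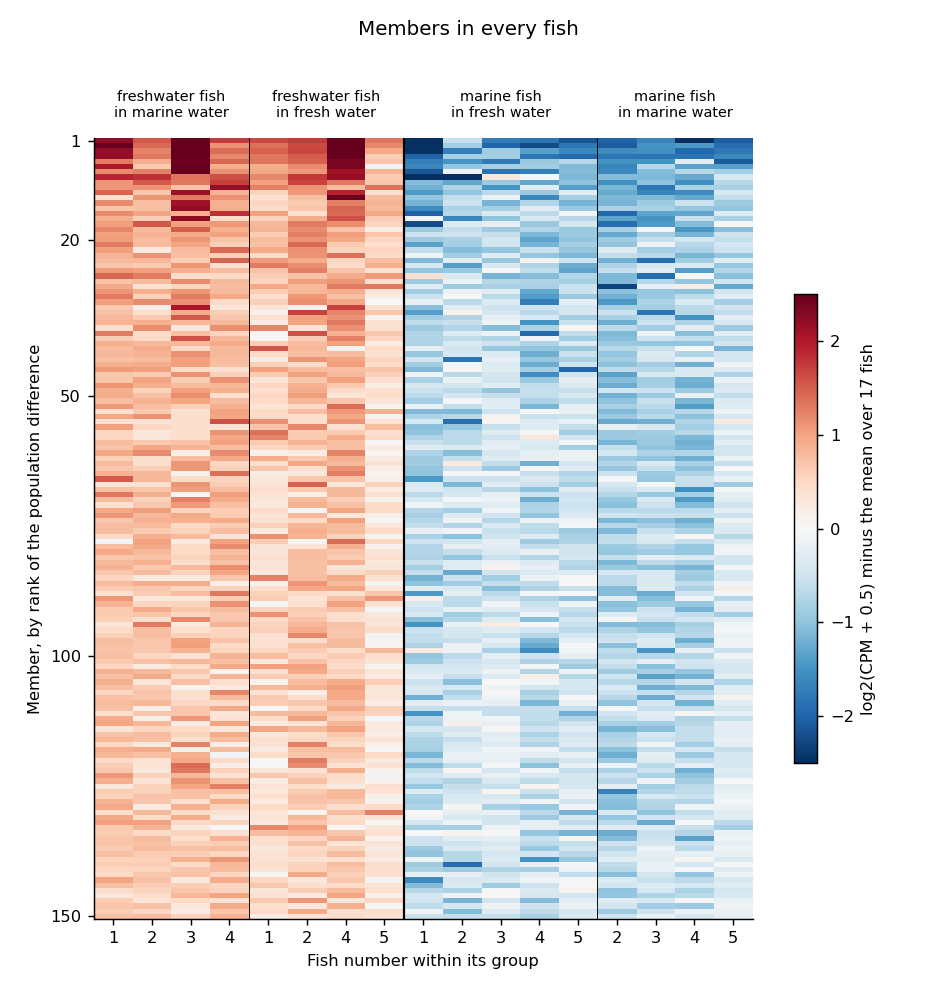
Heat map of log2(CPM + 0.5) minus the mean over 17 fish for the 150 members (rows, by rank) in every fish (columns, freshwater fish left of the thick line, marine fish right of it). Red runs through all 8 freshwater columns and blue through the 9 marine columns, palest in freshwater fish 5 in fresh water, and the top rows are darkest in freshwater fish 3 in marine water and fish 4 in fresh water.

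The distance between the populations was small for most members. The lowest freshwater fish stood above the highest marine fish by a median of 1.24-fold. For 11 members that ratio was over 2-fold, and for 37 it was under 1.1-fold. The widest separation was 4.74-fold, at rank 2, and the narrowest was 1.01-fold, at rank 58. At rank 58 the lowest freshwater fish had 66.6 CPM and the highest marine fish 66.0 CPM. Just outside, the nearest gene that overlapped had its lowest freshwater fish at 1.00 times its highest marine fish. The last member had a difference of 1.00 log2 units, the 2 genes dropped by the limit of 150 had 1.002 and 1.00007, and the next gene had 0.997. Another 110 genes met the difference and water conditions but overlapped, and for 75 of these a single fish of either population stood in the way.

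**Figure D2:**
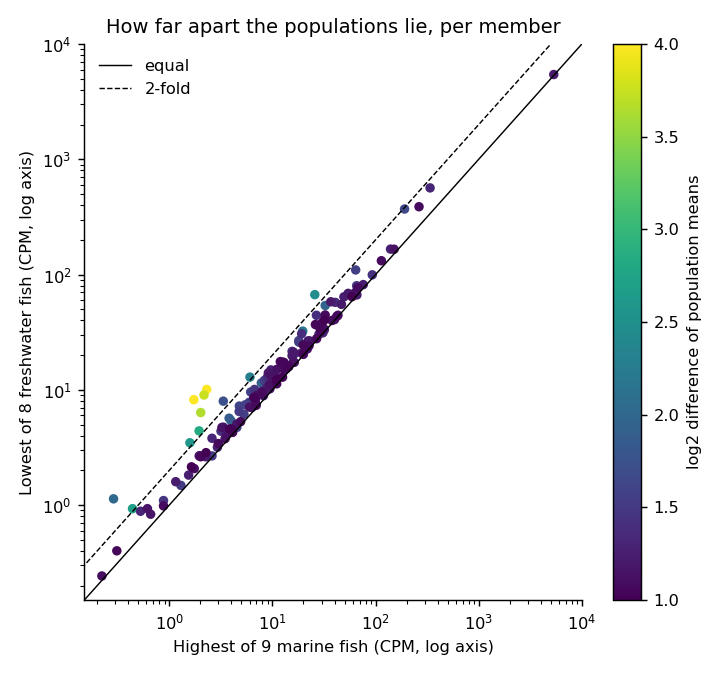
For each of the 150 members, the CPM of the lowest freshwater fish (vertical, log axis) against that of the highest marine fish (horizontal, log axis), coloured by the log2 difference of the means. All points lie above the line of equality, most between it and the 2-fold line, and 11 lie above the 2-fold line.

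The member with the largest difference was ENSGACG00000003845, which averaged 21.5 CPM over freshwater fish and 0.724 CPM over marine fish. It had 19, 11.8, 47.9 and 13.5 CPM in freshwater fish 1 to 4 in marine water, and 12.6, 13.6, 43.3 and 10.1 CPM in freshwater fish 1, 2, 4 and 5 in fresh water. It had 0.205, 2.31, 0.745, 0.703 and 0.440 CPM in marine fish 1 to 5 in fresh water, and 0.556, 0.826, 0.216 and 0.514 CPM in marine fish 2 to 5 in marine water. One fish in each freshwater group stood far above its companions, and the highest marine fish was the shallowest library. The difference was 4.17 log2 units, and it was 4.52 in marine water and 3.89 in fresh water. Group means were 23.1 ± 16.9 CPM in freshwater fish in marine water and 19.9 ± 15.6 CPM in freshwater fish in fresh water (SD, n = 4 each). They were 0.880 ± 0.827 CPM in marine fish in fresh water (SD, n = 5) and 0.528 ± 0.25 CPM in marine fish in marine water (SD, n = 4).

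ENSGACG00000002336, at rank 2, had nearly the same profile. It had 25.8, 10.2, 49.5 and 8.21 CPM in freshwater fish 1 to 4 in marine water, and 9.92, 12, 35.5 and 8.77 CPM in freshwater fish 1, 2, 4 and 5 in fresh water. It had 0.205, 1.73, 0.497, 0.351 and 0.660 CPM in marine fish 1 to 5 in fresh water, and 0.445, 0.936, 0.974 and 0.566 CPM in marine fish 2 to 5 in marine water. Freshwater fish 3 in marine water and fish 4 in fresh water were again highest, followed by fish 1 in marine water. The difference was 4.08 log2 units, 4.28 in marine water and 3.84 in fresh water. Its change between waters in freshwater fish, -0.49 log2 units, was the closest to the limit of any member in that population.

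The members ranked 3 to 7 had differences of 3.74, 3.64, 2.83, 2.68 and 2.60 log2 units. In all 7 leading members the 2 highest of the 8 freshwater fish were fish 3 in marine water and fish 4 in fresh water. Summed over these 7 members, fish 3 in marine water had 223 CPM and fish 4 in fresh water 186 CPM, and the other freshwater fish had 43.0 to 104 CPM. The marine fish had 1.64 to 9.52 CPM. That every freshwater sum lay above every marine sum follows from the conditions. The mean of those 2 fish was 2.35 to 3.43 times the mean of the other 6 freshwater fish in these members. Without the 2 fish the differences at ranks 1 and 2 were 3.51 and 3.43 log2 units.

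**Figure D3:**
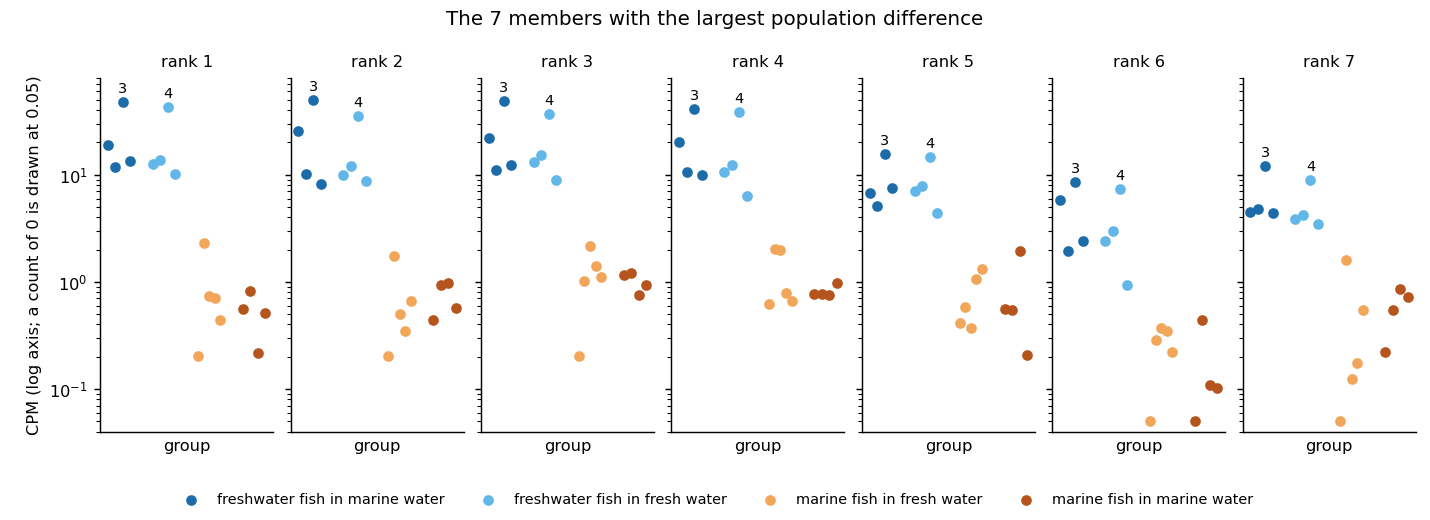
CPM (log axis) of the 7 leading members in every fish, 1 point per fish and 1 colour per group, with the fish numbers of the 2 highest freshwater fish written above their points. In every panel the freshwater fish lie above all marine fish, as the conditions require. Fish 3 in marine water and fish 4 in fresh water stand above the other 6 freshwater fish.

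This pair of fish was highest in 23 members, 15.3% of the 150, against 1.79% of expressed genes and 2.11% of the 11938 expressed genes within the water limit. Of the 23, 12 were among ranks 1 to 20 and 11 among the other 130. The rank is set by a mean that these 2 fish raise, so nothing is read from that concentration. The same mean helped choose the members, and the compared genes were not held to the conditions on difference and overlap. The contrast of 15.3% with 1.79% or 2.11% is therefore a description only. Over the other 6 freshwater fish the 23 members had a median difference of 1.49 log2 units, and in 3 of them it was below 1, the lowest at 0.85. In the 23 members the mean of the 2 fish had a median of 2.24 times that of the other 6, and in the remaining members 1.04 times. Of the 28 possible pairs, the next most common in the members were fish 4 in marine water with fish 4 in fresh water (10.7% of members, 4.95% of expressed genes) and fish 3 in marine water with fish 2 in fresh water (10% of members, 3.62% of expressed genes). The pair most common over expressed genes, fish 2 and 4 in marine water at 10.1%, was highest in 6% of members. The grouping was noticed in the data and describes these 8 fish only. Without both fish, 148 genes met the conditions and 120 of them were members.

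**Figure D4:**
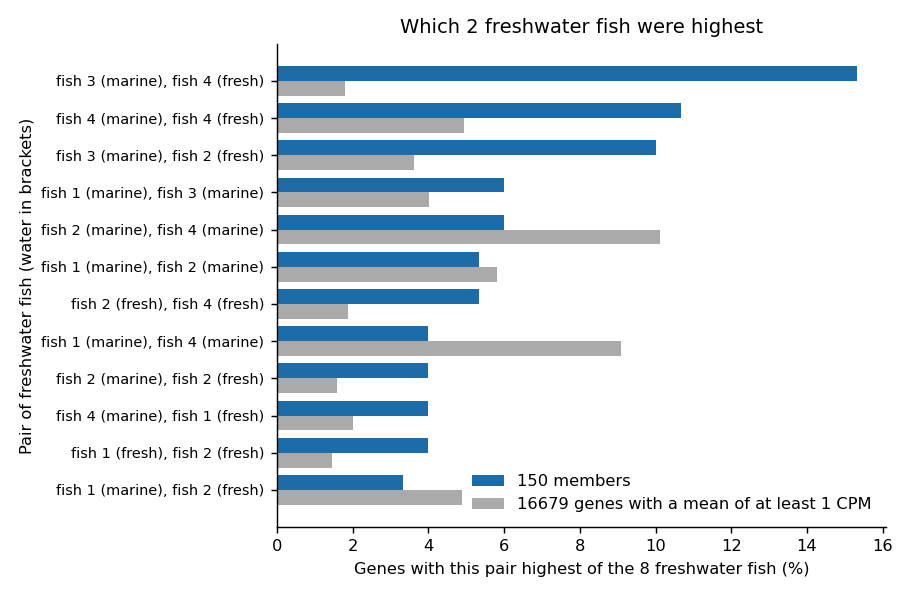
Share of genes (horizontal, percent) for which a given pair were the 2 highest of the 8 freshwater fish, for the 12 pairs most common in the members, with the 150 members in blue and the 16679 expressed genes in grey. Fish 3 in marine water with fish 4 in fresh water leads at 15.3% of members and 1.79% of expressed genes. The expressed genes were not held to the conditions that chose the members, so the shares come from unlike sets.

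The pair was also highest in 8 of the 54 genes (14.8%) that met every condition except the limit on water change. Of the 54, 34 were over the limit in marine fish only, 14 in freshwater fish only and 6 in both. Their median population difference was 1.69 log2 units and the largest was 5.08. In 7 of them the difference was larger than at rank 1, and 6 of the 8 genes led by the pair were among these 7. The difference rests on a mean that the pair raises, and the same fish chose the 54 genes. Nothing is therefore read from that overlap, and the 14.8% is not a separate observation from the members. Among marine fish, 37 of the 54 genes rose beyond the limit in fresh water and 3 fell. Among freshwater fish, 4 rose and 16 fell. Over all expressed genes, 49.6% rose by any amount in marine fish and 32.4% in freshwater fish. The median change of expressed genes in freshwater fish was -0.11 log2 units on totals and -0.00019 with TMM. Changes beyond the limit were not counted over all genes or with TMM, so these directions are given as a description only.

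Other members with large differences had other profiles among the freshwater fish. The member ranked 8 had 26.6, 25.3, 18.2 and 21.6 CPM in freshwater fish 1 to 4 in marine water, and 16.3, 24.3, 32.3 and 10.8 CPM in fish 1, 2, 4 and 5 in fresh water. It was at 0 counts in marine fish 1 and 2 in fresh water but at 8.26, 6.68 and 2.86 CPM in fish 3, 4 and 5, and at 2.95, 2.86, 2.54 and 4.99 CPM in marine fish 2 to 5 in marine water. Marine fish in fresh water were thus split, with the 2 at 0 apart from the other 3. In a library of 9740777 counts a count of 0 allows up to 0.308 CPM, and in one of 6932688 up to 0.433 CPM.

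The member ranked 9 was steadier. It had 90.6, 123, 106 and 138 CPM in freshwater fish 1 to 4 in marine water and 84.6, 136, 105 and 66.9 CPM in fish 1, 2, 4 and 5 in fresh water. It had 19.5, 16.7, 21.9, 16.7 and 20.5 CPM in marine fish 1 to 5 in fresh water and 14.4, 20.5, 14.1 and 25.8 CPM in marine fish 2 to 5 in marine water. No fish stood apart in either population, and the lowest freshwater fish was 2.60 times the highest marine fish. The member ranked 10 was led by another fish, with 36.6 CPM in freshwater fish 4 in marine water against 12.9 to 17.2 CPM in the other 3 fish of that group, and 1.82 to 6.06 CPM over all marine fish.

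The most abundant member, at rank 77, made up 49% to 70.6% of the members' summed level. It averaged 8124 ± 1529 CPM in freshwater fish in marine water and 8432 ± 2476 CPM in freshwater fish in fresh water (SD, n = 4 each), against 3259 ± 653 CPM in marine fish in fresh water (SD, n = 5) and 3996 ± 974 CPM in marine fish in marine water (SD, n = 4). The lowest freshwater fish, fish 5 in fresh water at 5435 CPM, lay only just above the highest marine fish, fish 4 in marine water at 5341 CPM. Its counts in all 17 libraries were multiples of 8, a property taken up below. Without this gene the members summed to 6732 ± 417 CPM in freshwater fish in marine water and 6028 ± 872 CPM in freshwater fish in fresh water (SD, n = 4 each). They summed to 2567 ± 186 CPM in marine fish in fresh water (SD, n = 5) and 2479 ± 363 CPM in marine fish in marine water (SD, n = 4).

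Below it in abundance, the members ranked 49 and 20 had their populations further apart. The member ranked 49 averaged 786 ± 104 CPM in freshwater fish in marine water and 645 ± 124 CPM in freshwater fish in fresh water (SD, n = 4 each), against 277 ± 32.9 CPM in marine fish in fresh water (SD, n = 5) and 295 ± 45.4 CPM in marine fish in marine water (SD, n = 4). The member ranked 20 had 423 to 558 CPM in freshwater fish in marine water and 370 to 561 CPM in freshwater fish in fresh water, against 104 to 185 CPM in marine fish in fresh water and 140 to 191 CPM in marine fish in marine water. Its lowest freshwater fish was 1.94 times its highest marine fish.

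At the other end, 8 members had a count of 0 in at least 1 marine fish, and none had one in a freshwater fish. The member ranked 13 was at 0 in 4 of 9 marine fish and at no more than 0.288 CPM in the others, and the freshwater fish had 1.13 to 4.30 CPM. The lowest-expressed member, at rank 110, was at 0 in 7 marine fish, among them all 5 in fresh water, and reached 0.243 to 0.950 CPM in freshwater fish. Its lowest freshwater count was 6, against 4 in the highest marine library, so this separation rests on very few counts. In 7 members every marine fish had under 10 counts, and in 32 at least 1 marine fish did.

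Within a population, single fish stood low or high across many members. Freshwater fish 5 in fresh water was the lowest of the 8 in 78 members, 52.0%, and in 19.2% of expressed genes. Its median deviation from the freshwater mean was -0.33 log2 units over the members and -0.05 over expressed genes. In marine fish, fish 3 in fresh water was highest of the 9 in 29 members (19.3%, against 9.59% of expressed genes) and fish 5 in marine water in 27 (18%, against 11%). Deviations from the group mean had a median correlation across pairs of members of 0.25 over the 8 freshwater fish and 0.20 over the 9 marine fish. Over 1822 other genes of the members' range of abundance the medians were 0.007 and 0.022. These points share the same libraries and their scaling. The conditions also used the lowest freshwater and highest marine fish to choose the members, and the compared genes were not held to them. The shares, deviations and correlations therefore describe these fish only, and nothing is read from their contrast with other genes. The coefficient of variation among fish of a group had a median of 19.9% over members in freshwater fish in marine water and 22.7% in freshwater fish in fresh water (15.4% and 18.4% over expressed genes). It was 26.9% in marine fish in fresh water and 28.3% in marine fish in marine water (24.3% and 20.5% over expressed genes).

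Between waters the members changed little, as the conditions required. In freshwater fish the change, coded as fresh over marine water and so kept over moved fish, had a median of -0.17 log2 units and ran from -0.49 to 0.44. It was positive in 35 members (23.3%), against 32.4% of expressed genes, whose median was -0.11. In marine fish the change, here moved over kept fish, had a median of 0.11 log2 units and ran from -0.50 to 0.49. It was positive in 99 members (66.0%), against 49.6% of expressed genes, whose median was -0.0032. Moved fish were higher in both populations in 79 members (52.7%) and in 34.8% of expressed genes. The expressed genes were not held to the water limit: 78.5% were within it in marine fish and 88.6% in freshwater fish. These shares therefore come from unlike sets of genes. The composition factor was itself higher in freshwater fish in marine water. With TMM the members' medians were -0.058 in freshwater fish and 0.13 in marine fish, against -0.00019 and 0.0099 over expressed genes. Moved fish were then higher in both populations in 65 members. The matching share of expressed genes was not computed with TMM, so nothing is read from that count.

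**Figure D5:**
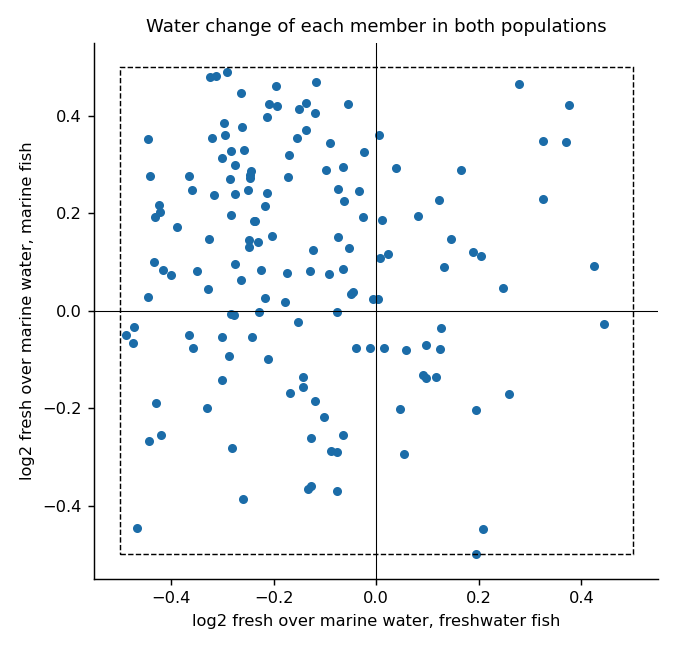
Change between waters (log2 fresh over marine water) of each of the 150 members in marine fish (vertical) against that in freshwater fish (horizontal), with the limits of 0.5 log2 units as a dashed square. The points fill the square with a surplus in the upper left part, where 79 members were higher in moved fish of both populations.

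The difference between populations was also set out by water. In marine water it had a median of 1.37 log2 units over the members and ran from 0.67 to 4.52. In fresh water it had a median of 1.13 and ran from 0.74 to 3.89. It was larger in marine water for 113 of the 150 (75.3%) and for 58.7% of expressed genes. With TMM it was larger in marine water for 67.3% of members and 50.2% of expressed genes, and the members' medians were 1.23 and 1.09 log2 units in marine and in fresh water. These values restate the changes between waters given above, since they come from the same 4 group means. Below 1 log2 unit were 7 members in marine water and 49 in fresh water.

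How far the separation extends to a fish that took no part in choosing genes was examined by leaving out each fish in turn. With 16 fish, 138 to 206 genes met the conditions. The fish left out lay on its own population's side of every fish of the other population for 82.5% to 98.6% of them, with a median over fish of 95.3%. Over all expressed genes that share was 15.5% to 38.5%. The lowest value, 170 of 206 genes, belonged to freshwater fish 5 in fresh water, and the highest, 141 of 143, to freshwater fish 1 in marine water. Among marine fish the lowest was fish 1 in fresh water, with 143 of 162 genes (88.3%). The genes chosen included 124 to 147 of the members, for which every fish is on its own side by definition. The rounds shared nearly all their fish, so these shares describe these 17 fish and are not a test.

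A like question was asked across waters, for lists chosen in 1 water. Each list was tested in fish of the other water, which had no part in choosing it. Genes without overlap and with a difference of at least 1 log2 unit in fresh water (4 freshwater against 5 marine fish) numbered 289 and included 101 members. Those members had no overlap in marine water either, by the conditions that chose them. Calls were not split between members and other genes, so the test describes the list and is not support for the members. They were tested in marine water (4 freshwater against 4 marine fish) with edgeR's quasi-likelihood test and Benjamini-Hochberg adjustment over all 17659 genes tested. Of the 289, 279 could be tested, and 196 were higher in freshwater fish and 0 lower at an adjusted p below 0.05. Over all tested genes 12.4% were called higher. At an unadjusted p below 0.05, 224 were higher and 1 lower, where 20% of all tested genes were higher. DESeq2 called 213 higher and 1 lower, and 14.8% of all tested genes higher. The median log2 fold change of the 279 was 1.24, against 0.02 over all genes tested.

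In the other direction, 962 genes were chosen in marine water, and they included 143 members. Those members had no overlap in fresh water by the conditions, and calls were again not split. In fresh water 154 of them were called higher in freshwater fish and 0 lower by edgeR with Benjamini-Hochberg adjustment, where 2.14% of 17390 tested genes were called higher. The median log2 fold change of the 947 that could be tested was 0.65, against -0.04 over all genes tested. At an unadjusted p below 0.05, 463 were higher and 19 lower, where 11.8% of all tested genes were higher. DESeq2 called 325 higher and 14 lower, and 6.72% of all tested genes higher, so calls were more frequent throughout. The count of 154 depended on single fish: it was 44, 31 and 31 without freshwater fish 1, 2 or 4 in fresh water, and 86 and 56 without marine fish 4 or 5 in fresh water. The share of all tested genes called higher moved with it, to 0.379%, 0.253%, 0.275%, 0.903% and 0.678%.

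The deposited counts have a property that touches some members. In 39 of the 150 (26.0%) the counts of all 17 fish shared a divisor: 2 in 30 members, 3 in 8 and 8 in 1. Among the 17449 genes with over 200 counts in all, 27.9% had such a divisor, so the members were close to the rest. Should those counts be reads multiplied by a constant, the counting error of the 39 members would be larger than their counts imply. After division by the shared divisor 231 genes met the conditions, 146 of them members, and the median difference over expressed genes was 0.16 log2 units. Ratios between fish changed there only through the library totals, so these counts do not show that counting error.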

How the data were processed

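The deposited table of the authors holds raw whole-number counts of 22456 genes in 17 gill libraries, with 0 columns of no sample and 664 genes at 0 throughout. The tools named, per the submitters' processing notes, are CASAVA 1.8.2 and TopHat2 2.1.0. Which counter, strand setting, build and annotation served is not given in the sources used here. Reads shared by gene copies or overlapping genes cannot be examined. No coordinates or sequences are given, since 0 of the IDs matched the 52177 genes of assembly fGasAcu3.hap1.1.

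Groups follow the labels. CPM were computed from library totals, as the selection rule asks. Expressed genes had a mean of at least 1 CPM. Floors for a count of 0 are 3 counts per library and cover counting error only. No 2 libraries of a group agreed within sampling noise: over 28 pairs a chi-square statistic divided by its degrees of freedom was 35.95 to 150.5. All were kept as separate fish.

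Each test was run on the fish of 1 water, with genes chosen in the other water. Both lists included members, whose lack of overlap in the tested water was fixed by the conditions. The tests therefore describe the lists and are not support for the members. They used edgeR 4.0.16 (filterByExpr with a minimum count of 10, TMM, glmQLFit, glmQLFTest, no covariates). On counts simulated for 17543 genes in marine water and 17293 in fresh water, 97 of 98 and 98 of 100 genes changed 4-fold were recovered, and 27 of 99 and 34 of 99 changed 2-fold. The simulation gave every gene the same spread among fish in both waters, so these shares do not measure the power of the tests on the real fish. Alternatives were other scalings, pseudocounts and filters, DESeq2 1.42.0, equal depth, shared divisors, a replicate block and each fish left out. A further alternative fitted all 4 groups together and so used the fish of both waters. Fish numbers were not taken as pairs, since the labels describe separate individuals.

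The members, conditions and comparisons were chosen with earlier results of these data known. The 2 members with the largest difference are named by ID. Other members shown were picked by rank after their values were seen. The gene lists and cell type markers planned for named genes could not be used without names. R 4.3.3, Python 3.11.15, numpy 2.4.6, pandas 2.3.3 and matplotlib 3.10.9 were used.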

Additional observations from a re-analysis of the deposited data

Results flagged for a closer look

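Within each of the 4 groups, 16 members and the members' summed level were examined for a fish whose gap to its nearest companion took up most of the group's range (Dixon's criterion at 95%). Of 68 groups of values 8 were singled out. Chance singles out about 1 in 20 in groups not picked by their values, here 3.4. The members examined are those described above, most of them picked after their values were seen, so that rate does not apply to them. The members ranked 1, 2 and 7 share the profile described above, so their flags are not separate observations.

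Freshwater fish 4 in fresh water stood apart at rank 1 (43.3 CPM, the others 10.1 to 13.6), at rank 2 (35.5 CPM, the others 8.77 to 12) and at rank 7 (8.97 CPM, the others 3.47 to 4.21). Freshwater fish 3 in marine water stood apart at rank 7 (12 CPM, the others 4.42 to 4.77). Freshwater fish 2 in fresh water stood apart at rank 49 (829 CPM, the others 565 to 607). Marine fish 2 in fresh water stood apart at rank 1 (2.31 CPM, the others 0.205 to 0.745). Marine fish 5 in marine water was singled out at rank 4 (0.977 CPM, the others 0.757 to 0.778) and at rank 8 (4.99 CPM, the others 2.54 to 2.95). In the libraries of that group 3 counts amount to 0.154 to 0.167 CPM. The gap at rank 4 thus rests on few counts and is not read as a difference between fish.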

How the results depend on the processing

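The number of genes meeting the conditions, 152, was 92 with DESeq2 size factors (89 members) and 97 with upper-quartile scaling (95 members). It was 231 after division by shared divisors. It was 106 to 173 under the other scaling, pseudocount, filter and depth alternatives and 138 to 206 with single fish left out. The 289 genes chosen in fresh water gave 164 to 188 calls with single fish left out and 179 to 213 under the other alternatives, against 196. The 962 genes chosen in marine water gave 154 calls, but 325 with DESeq2, 344 with all 4 groups fitted together and 31 to 173 with single fish left out. This joint fit also called 15 of them lower. For both lists it estimated spread partly from the fish that chose the genes, so it is not an independent test. The share of all tested genes called higher moved alongside: 2.14% as reported, 6.72% with DESeq2 and 7.80% with the joint fit. The exchanged count of 25 genes was 39 with TMM, 45 with DESeq2 size factors, 43 with upper-quartile scaling and 39 without freshwater fish 5 in fresh water, but 18 after division by shared divisors, 18 without freshwater fish 4 in fresh water, 19 without fish 2 and 17 without both leading fish. Division by shared divisors acts on this count through the library totals and the added 0.5 CPM. The cause of the other changes was not tested. With the fish number as a replicate block, the counts were 181 and 12, and 11.2% and 0.0805% of all tested genes were called higher. Fish with the same number shared little (correlations of deviations -0.0014 to 0.12), so no pairing was assumed. The differences at ranks 1 and 2, 4.17 and 4.08 log2 units, were lowest without both leading fish, at 3.51 and 3.43. Under every alternative run they moved by less than the SD among the 8 freshwater fish. That is a wide limit for a difference of means, and the leading fish themselves raise it. Members under 10 counts per library are limited by depth.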
